A study of Homo sapiens with 13 samples.

Results

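The AP-1 transcription factors are dimers built from members of the Fos, Jun and BATF families, and 9 of their genes were examined here: FOS, FOSB, FOSL1, FOSL2, JUN, JUNB, JUND, BATF and BATF3. They were chosen by name as a gene family, with no cut on a peak value, and are 9 of the 19881 protein-coding genes of the GENCODE annotation of hg19 on chromosomes 1 to 22, X and Y. The data are ChIP-seq peak lists from MDA-MB-231, an established human cell line from a triple-negative breast cancer with basal, mesenchymal-like features, grown in a single untreated condition. There was 1 list for each of 6 targets. H3K4me1, H3K27ac, H3K4me3, RNA polymerase II (Pol II) and CTCF had 2 libraries each, merged by the authors before peak calling, and p300/CBP had 1 library. Because each list holds positions only, with no height, count or replicate behind a peak, all results below are presence, position and width, no error between replicates can be given, and no test was made.

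A Fos protein needs a Jun protein as its partner, whereas Jun proteins also pair among themselves. The dimers bind the TPA-responsive element (TRE) and the related cAMP-responsive element (CRE), and several of the genes are themselves known AP-1 targets. FOSL1 and FOSL2 encode Fra-1 and Fra-2, FOS and FOSB are classical immediate early genes that serum and growth factors switch on through the serum response factor, and the BATF proteins, best known from lymphoid and myeloid cells, pair with Jun without a transactivation domain of their own. H3K4me3 marks promoters, H3K4me1 marks enhancers and the flanks of promoters, H3K27ac marks active elements of both kinds, p300 and CBP are acetyltransferases found at active enhancers, and CTCF is an insulator and loop-anchoring protein.

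The marker genes of the cell type were examined first. H3K27ac was listed at the promoters of 6 of 6 mesenchymal or basal markers (VIM, CD44, AXL, CAV1, ZEB1 and MSN) and of 2 of 6 luminal markers, which were FOXA1 and ERBB3. ESR1, GATA3 and CDH1 had none of the 6 targets at the promoter, and PGR had H3K4me3 alone. The blood markers PTPRC and CD3E had none of the 6 targets there. A p300/CBP peak lay within 25 kb of the transcription start site (TSS) of 5 basal markers, of 1 luminal marker (GATA3) and of PTPRC. Among all coding genes, 61.5% had H3K27ac at the promoter and 9.98% a p300/CBP peak within 25 kb.

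All 9 AP-1 genes carried H3K27ac and H3K4me3 at the promoter, taken as a 3 kb window centred on the canonical TSS, with any shared base pair counted as presence. Over all 19881 genes the shares were 61.5% for H3K27ac and 62.7% for H3K4me3. Pol II was listed at 7 of the 9 promoters, against 58.4% of all promoters, and was not listed at BATF and BATF3. H3K4me1 was listed at 6 of 9, against 59.4%. The 3 without it were FOSL2, JUN and JUNB, whose nearest H3K4me1 regions with H3K27ac began just outside the window, at -2.88, -1.93 and -2.15 kb from the TSS. CTCF was listed at 2 of 9 (JUN and BATF3), against 17.6%, and p300/CBP at 0 of 9, against 0.704%. With so low a background, 0 of 9 says little about the members for p300/CBP.

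The same 4 targets, H3K4me1, H3K27ac, H3K4me3 and Pol II, were together at FOS, FOSB, FOSL1 and JUND, and this was also the combination at 7195 genes, or 36.2% of all. FOSL2 and JUNB shared the combination without H3K4me1, found at 1208 genes (6.08%). JUN had H3K27ac, H3K4me3, Pol II and CTCF, as did 388 genes (1.95%). BATF had both histone marks of active promoters and H3K4me1 without Pol II, as did 402 genes (2.02%), and BATF3 had these and CTCF, as did 165 genes (0.830%).

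**Figure D1:**
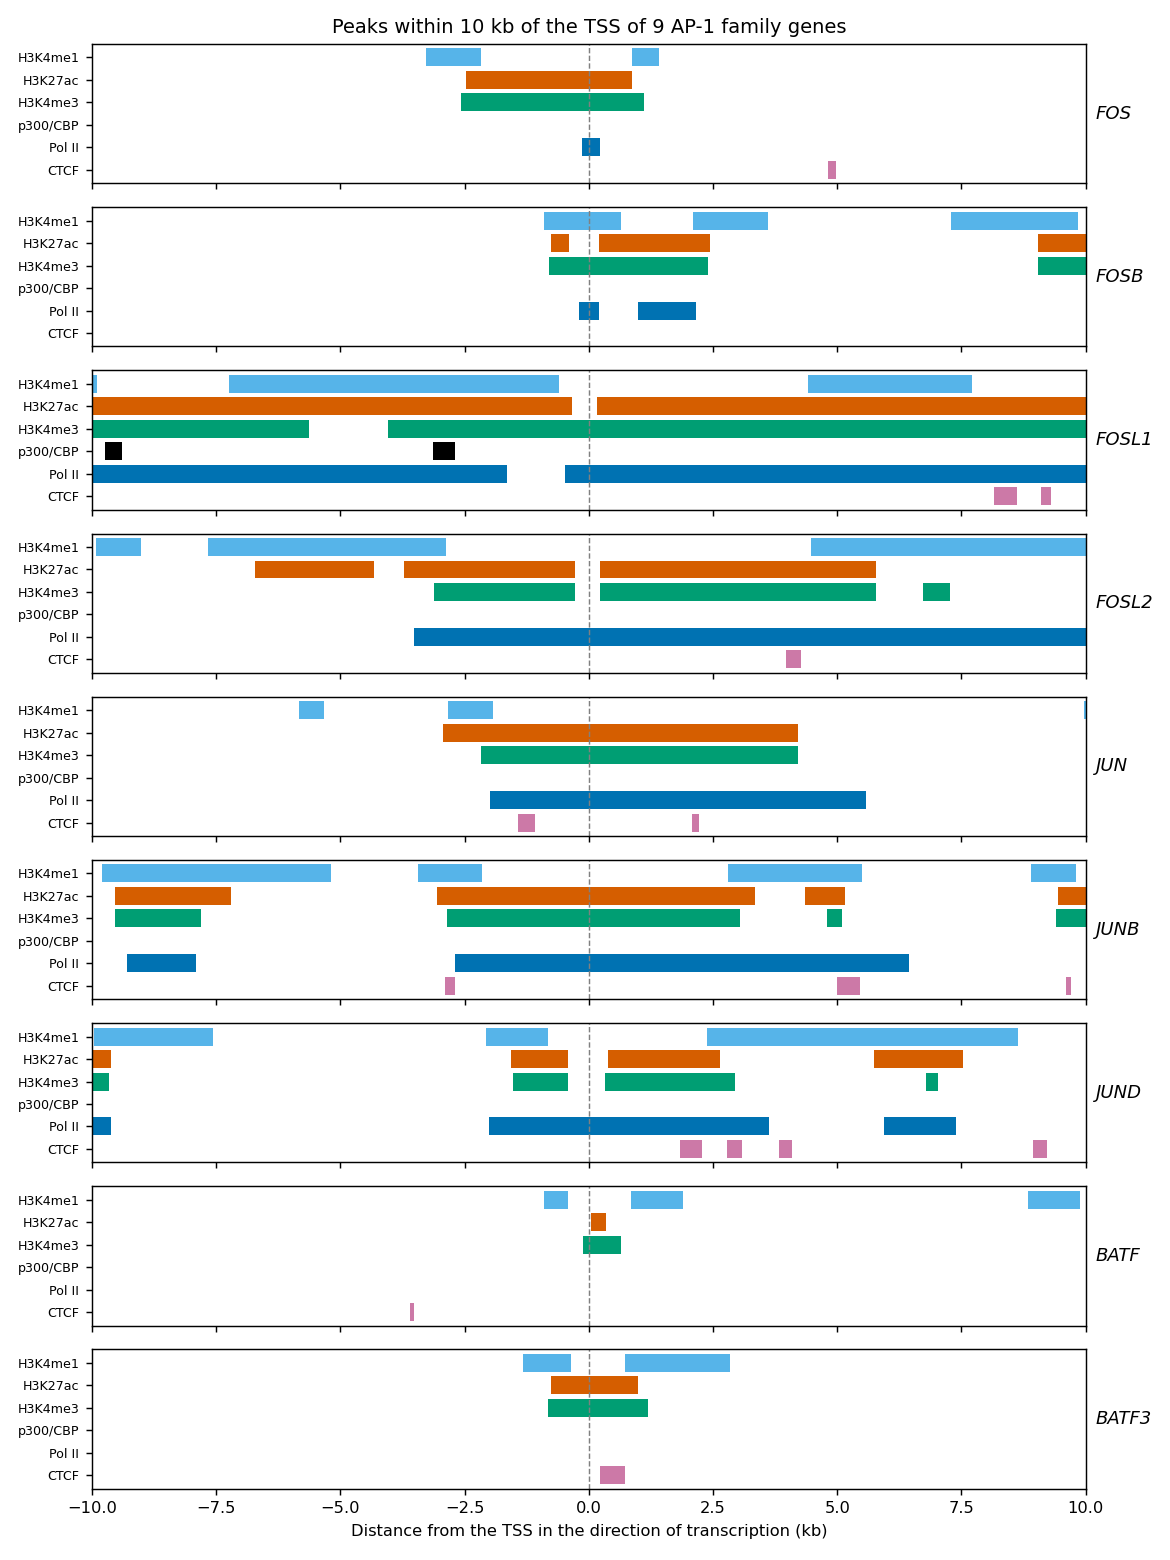
Listed peaks within 10 kb of the TSS of each AP-1 gene, as bars against distance from the TSS (dashed line) in kb, with positive values in the direction of transcription and 1 row per target. FOSL1 shows bars that run past both edges of the plot, FOS and FOSB show short Pol II bars at the TSS, and BATF and BATF3 show no Pol II bar.

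The promoters differed in where the peaks lay about the TSS. A H3K27ac peak covered the TSS base itself at FOS, JUN, JUNB and BATF3, or 4 of 9, against 47.6% of all genes. That share is 9461 of 19881 genes, of which only 12218 had H3K27ac in the window, as all 9 members did. At FOSB, FOSL1, FOSL2 and JUND the TSS lay instead in a gap between an upstream and a downstream H3K27ac peak. The gap ran from -404 to +197 bp at FOSB, from -342 to +159 bp at FOSL1, from -275 to +226 bp at FOSL2 and from -419 to +382 bp at JUND. H3K27ac signal closer than 500 bp had been joined in the list, so only gaps of at least that size can be seen. At BATF the single H3K27ac peak began 39 bp downstream of the TSS. H3K4me3 covered the TSS base at 7 of 9, against 52.2% of all genes (10387, with 12472 having it in the window). It was interrupted at FOSL2 and JUND together with H3K27ac. Pol II covered the TSS base at 7 of 9, the same 7 genes that had Pol II in the window. Over all genes the share was 51.2% (10172, with 11603 having it in the window).

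FOS, the prototype of the Fos family (chr14:75745529-75748933 on the plus strand of hg19), had a short Pol II peak of 350 bp from -130 to +219 bp of the TSS, inside H3K27ac of 3350 bp and H3K4me3 of 3700 bp. Of the 11603 promoters with Pol II, 10421 had a wider peak. FOSB, its close relative (chr19:45971253-45978437 on the plus strand), had Pol II peaks of 400 bp over the TSS and of 1150 bp from +997 to +2146 bp, H3K27ac of 2250 bp on the gene side and H3K4me3 of 3200 bp across the TSS. Both genes had H3K4me3 above the upper quartile of all promoters with that mark (3000 bp), and of their widest Pol II peaks neither exceeded the upper quartile of 1950 bp.

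FOSL1, which encodes Fra-1 (chr11:65659520-65668044 on the minus strand), had the widest H3K27ac and H3K4me3 peaks of the 9 promoters. H3K27ac extended over 13400 bp from +159 bp into and past the gene and over 18150 bp on the upstream side, and the H3K4me3 peak spanned 17450 bp. Only 12 of 12218 promoters touched a wider H3K27ac peak, and 1 of 12472 a wider H3K4me3 peak. The Pol II peak over the TSS spanned 13300 bp, and 269 of 11603 promoters had a wider one. FOSL1 was the only one of the 9 whose peaks were shared with promoters of other coding genes. FIBP and CCDC85B, with TSSs 11.9 and 9.72 kb away, lay under the same H3K27ac, H3K4me3 and Pol II peaks, and C11orf68 and DRAP1, at 18.7 and 19.0 kb, under the same upstream H3K27ac peak. How much of these widths belongs to FOSL1 itself cannot be told apart from the signal of its neighbours in such lists.

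FOSL2, which encodes Fra-2 (chr2:28615315-28640184 on the plus strand), had no other coding TSS within 100 kb and still had a Pol II region that ran from -3.52 to +12.9 kb and measured 16450 bp, with 142 promoters in the list wider. Its H3K27ac peaks were 3450 and 5550 bp on either side of the TSS, and H3K4me3 was interrupted at the same positions next to the TSS, -275 and +226 bp.

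JUN, the prototype of the Jun family (chr1:59242517-59249720 on the minus strand), had H3K27ac of 7150 bp, H3K4me3 of 6400 bp and Pol II of 7550 bp across the TSS. Its CTCF peak of 350 bp lay within H3K27ac and H3K4me3, from -1431 to -1082 bp. JUNB, which pairs with Fos proteins and is itself an immediate early gene (chr19:12902300-12904129 on the plus strand), had H3K27ac of 6400 bp, H3K4me3 of 5900 bp and Pol II of 9150 bp, all uninterrupted over the TSS. JUND, which is expressed in many cell types at rest (chr19:18390504-18392432 on the minus strand), had narrower histone peaks of 2250 and 2600 bp on the gene side and Pol II of 5650 bp. For H3K27ac, JUND was within the quartiles of all promoters (median 2100 bp, quartiles 1400 and 3000 bp), whereas its Pol II peak was wider than that of 91.7% of the promoters with Pol II.

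BATF (chr14:75988798-76013336 on the plus strand) had the narrowest promoter regions of the family, with H3K27ac of 300 bp and H3K4me3 of 750 bp. Of the promoters with each mark, 11956 of 12218 and 11762 of 12472 were wider. BATF3 (chr1:212859759-212873182 on the minus strand) had H3K27ac of 1750 bp and H3K4me3 of 2000 bp, within the quartiles of all promoters, and its CTCF peak of 500 bp lay from +232 to +731 bp. Neither gene had Pol II in the window or anywhere in the gene.

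**Figure D2:**
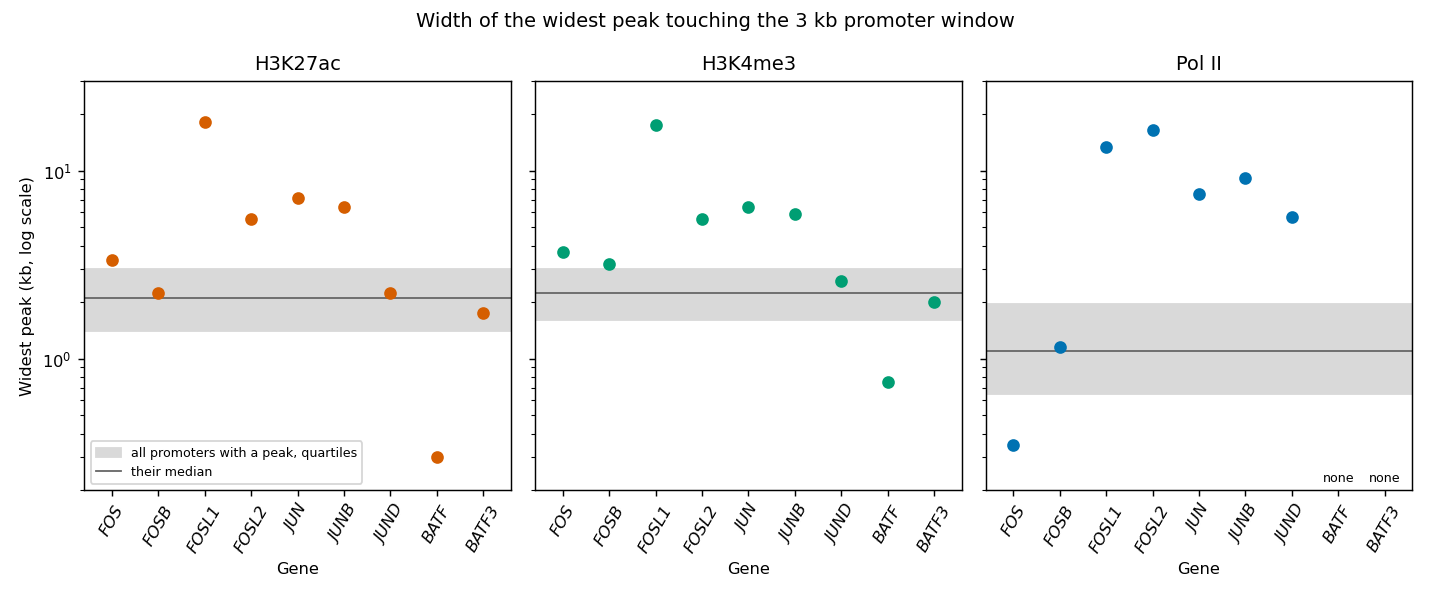
Width in kb, on a log scale, of the widest peak that touches the 3 kb promoter window of each AP-1 gene, in a panel each for H3K27ac, H3K4me3 and Pol II, with the quartiles (grey band) and median (line) of all promoters that have such a peak. FOSL1 is highest for both histone marks (18150 and 17450 bp), FOSL2 for Pol II (16450 bp), BATF is below the lower quartile for both histone marks, and BATF and BATF3 have no Pol II peak.

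Pol II covered the whole of FOSL1, JUNB and JUND. It covered 95.4% of FOSL2, which is 24.9 kb long, and 77.3% of JUN. By contrast, 6.52% of FOS and 18.8% of FOSB were covered, and none of BATF and BATF3. Over all coding genes the median was 0.749% and the upper quartile 6.10%, so FOS was close to the upper quartile and the other genes with Pol II were above it. JUNB and JUND are 1830 and 1929 bp long, FOS 3405 bp, FOSB 7185 bp, JUN 7204 bp and FOSL1 8525 bp, and the part of gene length in these shares was not tested. RNA was not measured in these samples.

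Among genes that differed in their Pol II share, H3K27ac followed the same order except that JUN ranked above FOSL2, whereas H3K4me1 followed another order. H3K27ac covered all of JUNB, 96.0% of FOSL1, 80.2% of JUND, 58.6% of JUN, 45.4% of FOSL2, 31.3% of FOSB and 25.6% of FOS, and 7.32% of BATF3 and 6.93% of BATF, against an upper quartile of 9.23% over all genes. H3K4me1 was not listed in JUN, JUNB and JUND. It covered 72.8% of FOSL2, in a single region of 18100 bp, 38.7% of FOSL1 and 29.9% of FOSB, and from 15.6% to 18.1% of BATF3, FOS and BATF. Over all coding genes the median for H3K4me1 was 6.56% and the upper quartile 18.4%, so these last 3 genes lay below the upper quartile.

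**Figure D3:**
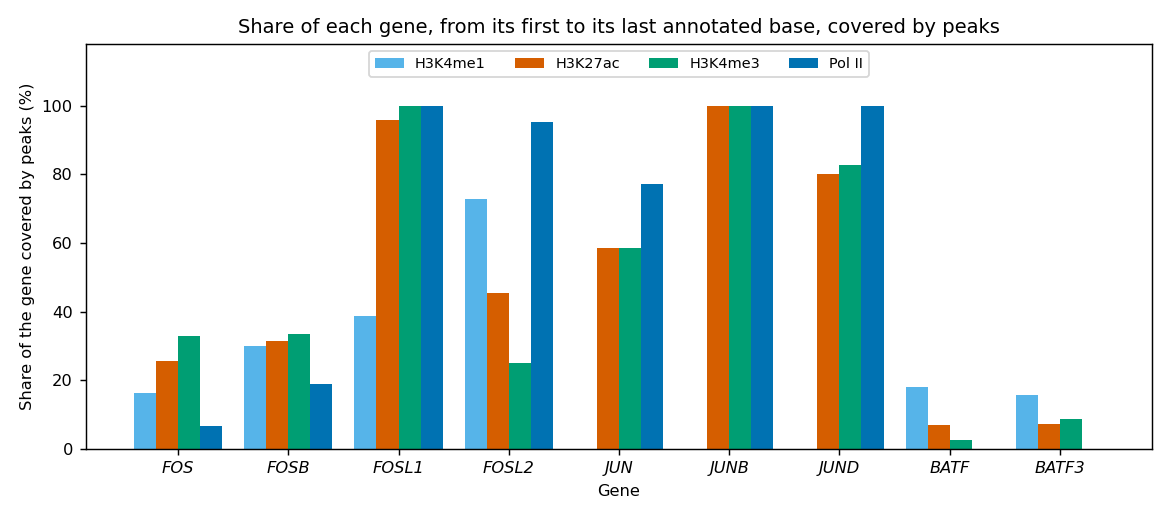
Share of each AP-1 gene, from its first to its last annotated base, covered by peaks of H3K4me1, H3K27ac, H3K4me3 and Pol II, in percent. Pol II reaches 77.3% to 100% in FOSL1, FOSL2 and the Jun genes, 6.52% and 18.8% in FOS and FOSB, and 0 in BATF and BATF3.

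The promoter sequences were searched for the elements through which AP-1 genes are known to be controlled, in the 250 bases before and 50 bases after the TSS, on both strands. The letters searched were TGACTCA for the TRE, TGACGTCA for the CRE and TGACATCA for the variant known from the JUN promoter, each also as its reverse complement, together with the CArG box, which the serum response factor binds. No pattern contains another. The TRE was found at FOSL1 and FOSL2, starting 1 base before and at base 5 of the transcribed sequence, and at 3.56% of all promoters. The CRE was found at JUND, 200 bases before the TSS, and at 2.68% of all promoters. The JUN variant was found at JUN itself, 67 bases before the TSS, and at 2.11% of all promoters. The CArG box was at none of the 9 in this window and at 1.20% of all promoters. With 500 bases before the TSS, 2.48% of all promoters had a CArG box, and FOS was among the members that did, with its match 314 bases before the TSS. Not every match of a member in this wider window is given. No match in JUNB, BATF or BATF3 says only that these letters are absent from these windows. The stretches around the matches of FOS, JUN and JUND, from GRCh37 and on the coding strand of each gene, show where these elements sit, with the matches in capitals:
FOS promoter, chr14:75745162-75745281, plus strand: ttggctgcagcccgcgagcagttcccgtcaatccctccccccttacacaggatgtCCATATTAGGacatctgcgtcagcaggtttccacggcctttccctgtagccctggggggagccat
JUN promoter, chr1:59249722-59249841, minus strand: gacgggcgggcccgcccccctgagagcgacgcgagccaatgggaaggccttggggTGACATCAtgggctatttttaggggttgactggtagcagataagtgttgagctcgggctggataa
JUND promoter, chr19:18392568-18392687, minus strand: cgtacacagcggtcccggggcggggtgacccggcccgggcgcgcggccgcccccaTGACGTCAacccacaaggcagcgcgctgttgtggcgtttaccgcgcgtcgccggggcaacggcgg
The JUN match lay under H3K27ac, H3K4me3 and Pol II, and the FOS match under H3K27ac and H3K4me3 but upstream of the short Pol II peak. At JUND the CRE lay in the gap of both H3K27ac and H3K4me3 and under Pol II. The share of G and C in the 250 bases before the TSS was 43.2% at BATF, the lowest of the 9, and 62.0% to 76.8% at the other genes, against a median of 63.2% over all promoters (quartiles 54.0% and 71.2%).

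The surroundings of the genes were then compared over the gene and 100 kb on either side. Every AP-1 gene had at least 4 active enhancers in its interval, 67 in total, where an active enhancer is an H3K4me1 region that shares at least 1 bp with H3K27ac and touches no promoter window of a coding gene. FOSB had 13, JUN 11, FOSL2 9, JUND 8, FOS and JUNB 6 each, FOSL1 and BATF3 5 each and BATF 4. The median over the 9 was 6, and over all coding genes 3 (quartiles 1 and 5). By active enhancers per 100 kb of the interval, which allows for gene length, FOSB and JUN exceeded 99.9% and 99.5% of all genes, respectively, and BATF, the lowest of the 9, exceeded 70.2%. These counts rest on joint use of both lists, and each region can also lie in the interval of other genes. For 37 of the 67 the member itself had the closest coding TSS. FOSB was closest for 5 of its 13, and JUN for 9 of its 11. JUNB was closest for 3 of 6, JUND for 3 of 8, BATF for 1 of 4 and BATF3 for 3 of 5. For inactive enhancers, H3K4me1 regions without H3K27ac outside promoters, the members had 64 in total, from 3 (JUND) to 10 (FOS and FOSB), with a median of 7 against 6 over all genes (quartiles 3 and 9).

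Around the members there were 185 H3K4me1 peaks (16 to 32 per gene, median 19, against 13 over all genes), 114 H3K27ac peaks (6 to 20, median 11, against 6), 74 H3K4me3 peaks (3 to 18, median 7, against 4), 97 Pol II peaks (1 to 27, median 6, against 4) and 85 CTCF peaks (4 to 16, median 10, against 5). FOSB and JUNB had the most Pol II peaks, 26 and 27. BATF and BATF3 had 1 and 2 Pol II peaks, and FOSL2 had 3, of which 1 was the promoter peak and another measured 17450 bp, from +14.1 to +31.5 kb. FOSB, JUNB and JUND lie on chromosome 19 among other genes, with 7, 14 and 8 coding TSSs within 100 kb, and FOSL1 on chromosome 11 with 11. FOS and FOSL2 had 0 such neighbours, JUN 1, BATF 2 and BATF3 4. Thus the members with the most H3K4me3 and Pol II peaks in the interval were also those with the most neighbouring genes, whose part in the counts was not tested. FOS, with no coding neighbour, had 5 H3K4me3 and 4 Pol II peaks. FOS and BATF lie 243 kb apart on chromosome 14, with the AP-1 repressor gene JDP2 between them, and their intervals do not overlap.

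**Figure D4:**
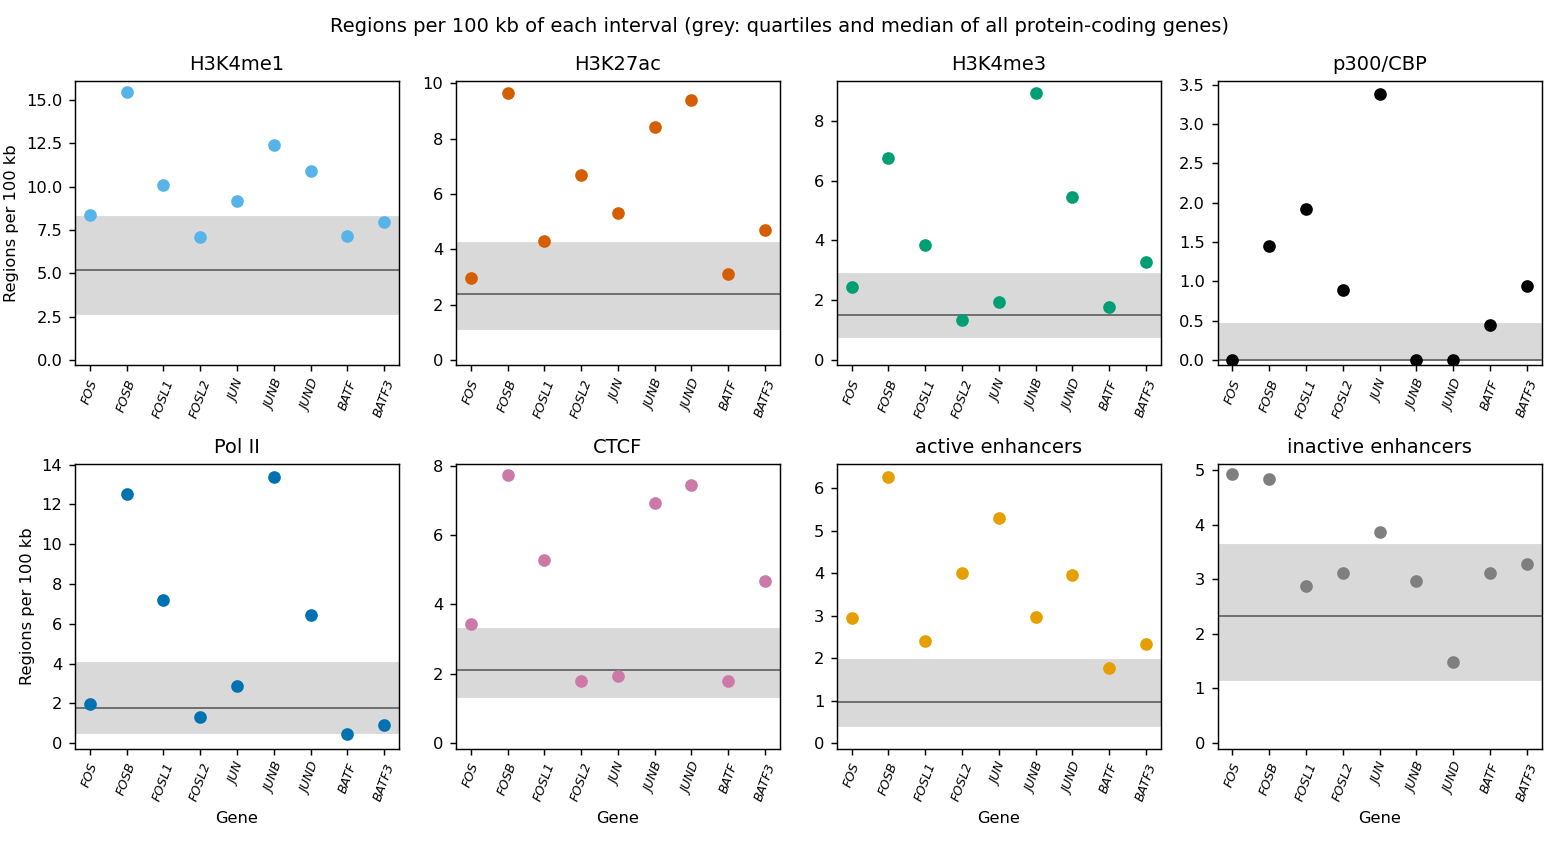
Number of listed regions per 100 kb of the interval of each AP-1 gene (the gene and 100 kb either side), in a panel for each target and for active and inactive enhancers, with the quartiles (grey band) and the median (line) of all 19881 protein-coding genes. For active enhancers 8 of the 9 points lie above the band and BATF lies within it, and for p300/CBP FOS, JUNB and JUND are at 0 and JUN is highest with 3.38 per 100 kb.

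The FOS interval held 6 active enhancers of 1100 to 3350 bp, of which 5 had the FOS TSS as the closest coding TSS. The nearest ended 2.18 kb upstream, and the next on either side lay at -18.6 kb and +13.4 kb. The 2 enhancers at -18.6 and -42.4 kb also had Pol II. FOSL2 had 9 active enhancers, with FOSL2 as the closest coding TSS for 8, including the widest in the whole set, 18100 bp from +4.48 to +22.6 kb within the gene, and another of 12500 bp from -34.4 to -21.9 kb. JUN had 11, of which 9 had JUN as the closest coding TSS, the widest being 8750 bp with its near edge at -96.5 kb. For JUND, the region from -24.5 to -15.3 kb was the widest with 9200 bp. FOSL1 had 5, and for none of them was FOSL1 the closest coding TSS. One of these lay inside FOSL1, from +4.41 to +7.71 kb, with CCDC85B as its closest coding TSS.

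Of the 67 active enhancers, 28 touched Pol II (41.8%, against 21.0% of all 24323), 36 touched H3K4me3 (53.7%, against 34.2%), 14 touched CTCF (20.9%, against 16.4%) and 11 touched p300/CBP (16.4%, against 20.6%). Some touched the same Pol II and H3K4me3 peaks as the member's own promoter. They lay at +2.10 kb of FOSB, +4.41 kb of FOSL1, and -2.88 and +4.48 kb of FOSL2. Others lay at -1.93 kb of JUN, and at -2.15 and +2.80 kb of JUNB. The region at -2.18 kb of FOS touched the promoter H3K4me3 peak but not Pol II. The part of such regions in these shares was not tested. The share with Pol II ranged from 6 of 6 around JUNB and 3 of 5 around FOSL1 to 0 of 5 around BATF3. Of those with p300/CBP, the BATF region that begins at +120 kb runs past the end of the interval. Its p300/CBP peak lies outside the interval and is not among the peaks counted below. The median width of the 67 was 2900 bp, against 2550 bp for all. The genes around the members and the widths of the regions were not matched to those of all enhancers, so these shares are side by side and not a comparison under equal conditions.

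p300/CBP was the only one of the 6 targets that was missing from the whole interval of some members. In the intervals lay 19 peaks, 7 for JUN, 4 for FOSL1, 3 for FOSB, 2 each for FOSL2 and BATF3, 1 for BATF, and 0 for FOS, JUNB and JUND. At least 1 peak was therefore present for 6 of 9 members, against 37.5% of all genes. Within 25 kb of the TSS a peak was present for 4 of 9 (FOSL1, FOSL2, BATF and BATF3), against 9.98%. Peaks of a group shared a source in part, since the 4 around FOSL1 lay in the same H3K27ac peak and 2 of those around JUN were 50 bp apart.

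The distance from the TSS to the nearest p300/CBP peak was 2.69 kb for FOSL1, 13.5 kb for BATF, 16.5 kb for FOSL2, 21.8 kb for BATF3, 28.2 kb for JUN and 43.4 kb for FOSB. For FOS it was 237 kb, for JUNB 260 kb and for JUND 1404 kb, against a median of 199 kb over all genes (quartiles 75.4 and 430 kb). The nearest peak was closer than that of FOSL1 for 1.29% of all genes, and closer than that of JUND for 97.0%. JUNB and JUND, both fully covered by Pol II and with H3K27ac over at least 80.2% of the gene, thus had no p300/CBP peak in the interval. The p300/CBP list comes from a single library, and a peak that is absent from it may lie under its threshold of 60 scaled units.

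**Figure D5:**
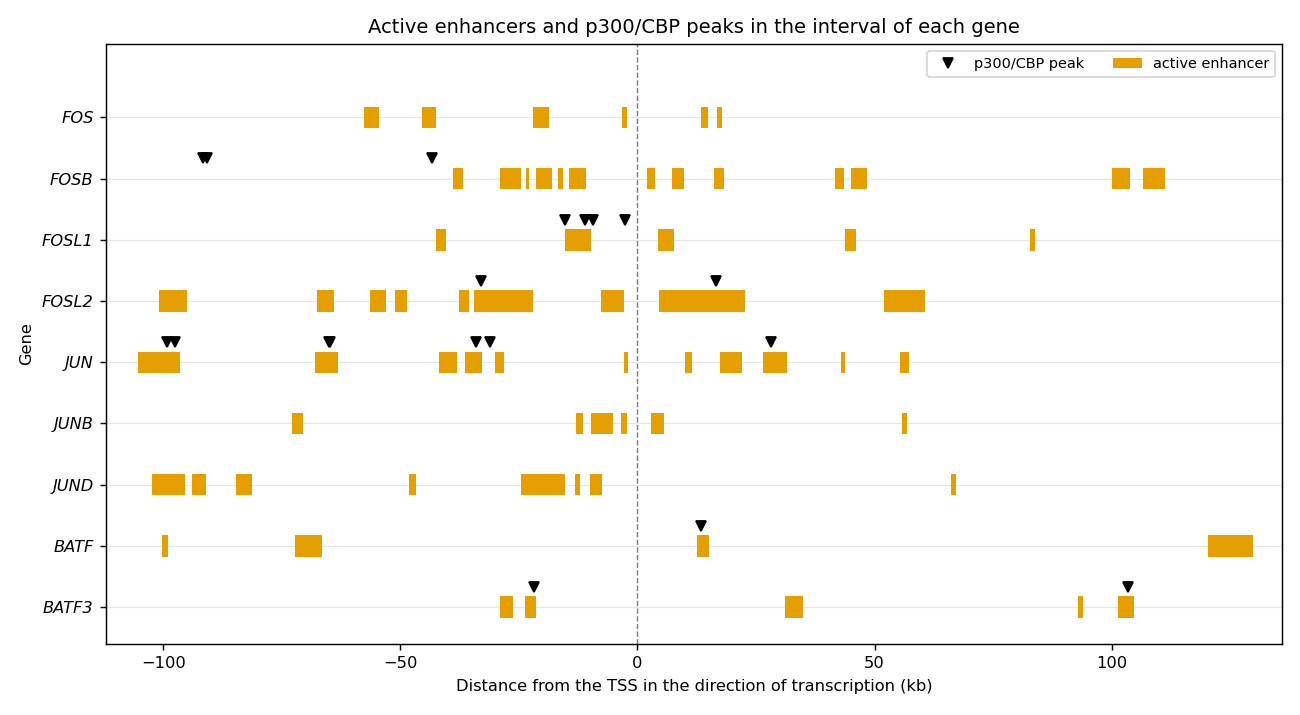
Active enhancers (orange bars) and p300/CBP peaks (black triangles) in the interval of each AP-1 gene, against distance from the TSS in kb, with positive values in the direction of transcription. All 4 peaks of FOSL1 and 6 of the 7 of JUN lie upstream, and the rows of FOS, JUNB and JUND hold enhancers and no triangle.

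All 19 peaks lay in H3K27ac, against 68.7% of the 7854 p300/CBP peaks that lie in an interval of any coding gene. Of the 19, 15 touched H3K4me1 (78.4% of the 7854), 12 lay in active enhancers (67.8%), 10 touched Pol II (19.7%), 7 touched H3K4me3 (14.1%) and 1 touched CTCF (2.48%). All 4 peaks around FOSL1 touched both Pol II and H3K4me3 and lay in the same H3K27ac peak, so they are not separate counts. The 19 peaks measured 100 to 550 bp, and by the annotation 8 were intergenic, 8 intronic and 3 exonic. For 12 the member had the closest coding TSS. The other 7 were those around FOSB (closest to ERCC2 or ERCC1), the 3 outer ones around FOSL1 (C11orf68), and one within an intron of ATF3, 103 kb downstream of BATF3, since ATF3, itself an AP-1 family gene, lies 91.1 kb from BATF3.

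Around JUN, 1 peak lay downstream at +28.2 kb and 6 lay upstream between -31.2 and -99.3 kb, all within the long noncoding gene LINC01135. The widest H3K27ac peak in the JUN interval was not the promoter peak but one of 7300 bp from -36.2 to -28.9 kb, and it held 2 of these p300/CBP peaks. At FOSL2 the peak at +16.5 kb was in an intron of FOSL2, within the enhancer of 18100 bp and under Pol II, and the peak at -33.1 kb was intergenic, within the enhancer of 12500 bp. The peak of BATF was in its own intron at +13.5 kb, in an enhancer of 2350 bp, and that of BATF3 was intergenic at -21.8 kb, in an enhancer of 2500 bp. At FOSL1 the peak at -11.1 kb was the only one of the 19 with CTCF and the only one of the 4 in an active enhancer as defined here. The peak at -2.69 kb touched both H3K4me1 and H3K27ac. Its H3K4me1 region, from -7.24 to -0.592 kb, reaches the promoter window and so is left out by that definition. The peak at -15.3 kb adjoins the upstream edge of the active enhancer.

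TRE letters were present in 8 of the 19 p300/CBP peaks: 2 around FOSL1, 3 around JUN and 1 each around FOSL2, FOSB and BATF3. Over all 13983 peaks on the same chromosomes the share was 20.7% (95% Wilson interval 20.1% to 21.4%), and over the 6889 that touched H3K27ac it was 33.9% (32.8% to 35.0%). Wider peaks hold more letters. Of peaks over 100 and up to 300 bp wide, 30.2% had a TRE (5 of 11 here), and of those over 300 bp, 37.7% (3 of 6 here). A CRE was in 1 of the 19, the FOSL2 peak at -33.1 kb, against 0.172% of all peaks, 0.305% of those that touched H3K27ac and 0.562% of those over 300 bp wide. No CArG box and no JUN variant was found in the 19. The peaks at -11.1 and -15.3 kb of FOSL1 and at -97.5 kb of JUN each had 2 TREs. The reference sequence of 120 bases within non-exonic peaks with a match, with all matches in capitals, shows the elements in their context:
FOSL1 peak at -11.1 kb, chr11:65678999-65679118, plus strand: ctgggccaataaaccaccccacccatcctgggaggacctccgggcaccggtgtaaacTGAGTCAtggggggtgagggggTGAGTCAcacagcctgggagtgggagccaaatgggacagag
FOSL1 peak at -15.3 kb, chr11:65683245-65683364, plus strand: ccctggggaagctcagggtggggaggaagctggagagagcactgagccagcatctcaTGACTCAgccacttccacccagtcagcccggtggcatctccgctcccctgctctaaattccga
FOSL2 peak at -33.1 kb, chr2:28582205-28582324, plus strand: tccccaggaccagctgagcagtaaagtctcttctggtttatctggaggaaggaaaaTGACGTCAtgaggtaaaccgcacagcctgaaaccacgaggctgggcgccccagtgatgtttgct
FOSL2 peak at +16.5 kb, chr2:28632275-28632394, plus strand: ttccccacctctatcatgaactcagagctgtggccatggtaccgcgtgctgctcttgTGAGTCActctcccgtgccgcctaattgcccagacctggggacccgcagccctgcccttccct
JUN peak at -64.8 kb, chr1:59314613-59314732, plus strand: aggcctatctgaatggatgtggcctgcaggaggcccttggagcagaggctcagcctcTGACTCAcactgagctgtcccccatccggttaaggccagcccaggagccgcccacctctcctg
JUN peak at -97.5 kb, chr1:59347265-59347384, plus strand: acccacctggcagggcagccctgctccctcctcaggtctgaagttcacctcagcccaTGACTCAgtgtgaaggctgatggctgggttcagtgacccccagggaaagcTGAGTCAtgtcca
BATF3 peak at -21.8 kb, chr1:212894981-212895100, plus strand: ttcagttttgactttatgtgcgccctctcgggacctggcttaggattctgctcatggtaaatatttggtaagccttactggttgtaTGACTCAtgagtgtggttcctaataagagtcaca
In the second FOSL1 peak the other TRE lies outside the printed bases. A match is a description of the reference letters, and binding of Fra-1, Fra-2 or any other AP-1 protein was not analysed here.

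The gene most like each member was sought among genes with the same combination of targets at the promoter and a TSS over 200 kb away, by the Euclidean distance over 6 values, the log2 of 1 plus the base pairs covered by each target within 100 kb of the TSS. The closest match was that of JUND with MRPL24 at 0.23 log2 units, against a median distance of 6.51 over the genes compared. It was followed by FOS with OSBP2 (0.52), FOSB with FMNL1 (0.65), JUNB with CKS1B (0.67), FOSL2 with SLC2A4RG (0.73), JUN with ENC1 (0.79) and FOSL1 with NRM (0.91). The distances were larger for BATF with PRDM15 (1.08) and BATF3 with NXPH3 (1.12). The number of genes compared was 164 for BATF3, 387 for JUN, 400 for BATF and from 1206 to 7193 for the other members. No member was the closest match of another. A closest match lies below the median distance by the way it is chosen, so the contrast with the median says nothing about JUND. FOS, JUNB and JUND had no p300/CBP peak within 100 kb, so a match that also lacks it adds nothing to their distance.

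Other genes of the pathway were read in the same way. In an extended list of 15 AP-1 partners and relatives from the ATF, JDP and MAF families and BATF2, H3K27ac was listed at 14 promoters and H3K4me3 at 15. The gene without H3K27ac was MAFA. Pol II was listed at 11, H3K4me1 at 12, CTCF at 7 (against 17.6% of all promoters and 2 of the 9 AP-1 genes) and p300/CBP at 0. Over all promoters the shares were 61.5% for H3K27ac, 62.7% for H3K4me3, 58.4% for Pol II, 59.4% for H3K4me1 and 0.704% for p300/CBP. A p300/CBP peak lay within 25 kb of the TSS of 2, at -12.4 kb from ATF3 and -11.2 kb from MAFK. Among 13 kinases and factors that act upstream of AP-1 genes, H3K27ac, H3K4me3 and Pol II were each listed at 12. The exception was MAPK10, the JNK3 gene known from the nervous system, which had none of the 6 targets at the promoter. H3K4me1 was listed at 10, CTCF at 5 and p300/CBP at 0. A p300/CBP peak lay within 25 kb of the TSS of 2 of them, with the nearest at -20.9 kb from MAP2K2 and at +11.3 kb from MAP2K4. Thus 2 of 15 and 2 of 13 genes in these lists had a p300/CBP peak within 25 kb, and 4 of 9 AP-1 genes. The share over all genes was 9.98%, and no test was made between the lists.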

How the data were processed

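ChIP-seq had been done in MDA-MB-231 cells with 2 libraries each for H3K4me1, H3K27ac, H3K4me3, Pol II and CTCF and 1 for p300/CBP. Per the paper's methods, the p300/CBP replicates were combined before that library was made. The 2 Input libraries have no peak list and were left out here. The authors deposited 1 list of peak positions per target, in base pairs of hg19 and without a value per peak, so sequencing depth is unknown and intervals cover counting error only. The p300/CBP, Pol II and CTCF lists held 13984, 26065 and 39596 peaks, each more than the paper reports. The difference was largest for p300/CBP, and its source is not known. Per the paper's methods reads were aligned with BWA-backtrack, whereas the submitters' processing notes name Bowtie2. The lists for H3K4me1, H3K27ac, H3K4me3 and p300/CBP are labelled as background-subtracted, and those for Pol II and CTCF are not. Signal was made in 50-bp bins with PASHA, replicates were merged, and peaks were called by thresholding at 30 (H3K4me1, H3K4me3), 50 (H3K27ac, Pol II, CTCF) or 60 (p300/CBP) and joined across gaps of up to 1000 bp (H3K4me1), 800 bp (Pol II), 500 bp (H3K27ac, H3K4me3) or 50 bp (p300/CBP, CTCF), which sets how wide a peak can become.

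NumPy 2.4.6 and SciPy 1.17.1 under Python 3.11.15 were used for all positions and intervals, and matplotlib 3.10.9 for plots. The end of a peak was treated as the first base after it. Genes came from GENCODE release 44 on GRCh37, with the canonical TSS of each protein-coding gene, and 0 peaks lay past a chromosome end of that build. Distances are from the nearest edge of a peak to the TSS. Sequences were read from GRCh37. All 9 members were named, with the most similar gene by coverage, coding genes whose promoter touches the same peak, and, in the extended and upstream lists, genes without H3K27ac at the promoter or with p300/CBP within 25 kb of the TSS. The FOXA1, ERBB3, ESR1, GATA3, CDH1, PGR, PTPRC and CD3E promoters were named after their values had been seen. The members and lists were chosen with earlier results of these data known. On simulated peaks the functions that compare positions gave 0 wrong results in 8005 comparisons. Alternatives changed the windows, the overlap, the peak widths kept, the joining of peaks and the definition of enhancers. No columns of values were left unmapped. Results for 1 marker gene and 1 stretch of promoter sequence are not reported here.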

Additional observations from a re-analysis of the deposited data

How the results depend on the processing

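Of 63 alternative values for 14 counts, 47 stayed within 1.5 times of the value reported. With a 1 kb window, H3K4me1 was listed at 3 members and CTCF at 1. With the peak centre in the window, Pol II was listed at 3, since wide peaks have their centres elsewhere. With 50 kb on either side, the intervals held 112 H3K4me1, 72 H3K27ac, 12 p300/CBP and 55 Pol II peaks and 36 inactive enhancers. Peaks no narrower than the median of their list numbered 114 (H3K4me1), 65 (H3K27ac) and 57 (Pol II), and gave 41 active and 40 inactive enhancers. With 50% of the H3K4me1 region covered by H3K27ac, there were 29 active and 102 inactive enhancers, and with regions touching promoters kept, 112 active ones. H3K27ac and H3K4me3 were each at 9 of 9 promoters with other windows or TSSs, at 8 with wide peaks and at 7 by peak centre, and p300/CBP was at 0 of 9 under every alternative run. The nearest p300/CBP peak of FOS moved from 237 to 257 kb and that of JUN from 28.2 to 31.2 kb when only wide peaks were kept. No paired analysis was possible because the lists come from merged replicates or, for p300/CBP, from 1 library. Leaving out a replicate was not possible either. A stricter threshold needs peak heights, which the lists lack. Absence from a list cannot be told apart from signal under the threshold.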
